A study of Mus musculus with 16 samples.

Results

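Kidney tumors that arose in mice after a short period of reprogramming were compared with normal kidney of the same age on 6 of the 16 arrays of the series. The arrays were those titled kidney tumor 1 to 3 and normal kidney 1 to 3, and each array held total RNA of 1 sample. The tumor mice carried inducible reprogramming factors, were given doxycycline for 7 days starting at 4 weeks of age, and their tumors were taken after a further 7 days without it. Both tissues had a 129xC57BL6 F1 or a mixed 129 and C57BL6 background. The tumors grew in chimeric mice, so that tumor RNA may also come from cells of the ICR host strain. The labels do not give the transgene promoter, the doxycycline dose or the sex of the animals. They also do not say whether 3 arrays came from 3 animals, and the p-values below therefore rest on variation among arrays that could be partly technical.

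The kidney filters blood in its glomeruli, whose filter is built by podocytes, and the tubule then takes back sugar, amino acids, phosphate, salt and water while it secretes drugs and organic acids. Proximal tubule cells run on fatty acid oxidation in many mitochondria and peroxisomes. Loop, distal and collecting duct cells set the final salt, acid and water content of urine. Reprogramming factors switch cells towards a pluripotent state, in which such specialised genes are normally silent. Tubule cells that survive damage are known to switch on a set of injury genes and to lose part of their specialised expression.

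Values below are log2 intensities of 19938 genes, 1 probe set a gene, unless a difference is named. Each change is the mean of kidney tumors minus the mean of normal kidneys in log2 units with its SE from limma. That SE pools the spread over all groups of the 16 arrays, so it can understate the spread of genes uneven among the tumors. Calls were made where the p-value, adjusted over all genes by the Benjamini-Hochberg method, was under 0.05. The arrays were close in overall level, with median intensities between 191 and 226 over all 16. No detection call came with the values, so folds of dim genes are compressed and a dim gene cannot be told from background. Of the genes tested, 49.8% were called, 21.7% higher and 28.1% lower in tumors, and the median change over all genes was -0.11. Counts in gene lists below are to be read against those shares. The shares do not hold for the fit with kidney tumor 1 alone, described below, which called fewer genes in both directions. With each array centred on its own median, the median over all genes was -0.24. Calls then split into 3606 higher and 8118 lower, which put 30.8% on the higher side in place of 43.6%. In bulk tissue, fewer cells of a type and less RNA per cell cannot be told apart.

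Xist, the RNA that silences an X chromosome in female cells, separated the tumors. It stood at 5.60, 10.84 and 10.19 in kidney tumors 1, 2 and 3, against 5.86, 5.65 and 5.86 in the normal kidneys. Kidney tumors 2 and 3 thus held Xist signal and kidney tumor 1 did not, while Y-linked genes were measured in all 3 tumors. Because of this, the comparison was also run with kidney tumor 1 alone against normal kidney, assuming that this lone array varied like the other groups. That fit called 5715 genes in place of 9922, and its counts are given below as "with tumor 1 alone" where they stand more than 1.5 times apart from a full count above 6. Counts of 6 or fewer are less firm: 45 of 55 such counts moved by more than 1.5 times under at least 1 alternative setting. Ces1f, Treh, Slc4a1, Ace, Nr1h4, Ppargc1a, Nqo1, Aldh1l1, Cyp7b1, Abcc3, Uty, Lhx1, Gbp3, Acta2 and Tagln, all described below, kept their direction but were not called with tumor 1 alone.

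Trh, the precursor of thyrotropin-releasing hormone, stood at 12.40, 12.37 and 12.80 in the kidney tumors and at 6.61, 6.58 and 7.03 in the normal kidneys (log2 change 5.79 ± 0.22, adjusted p 4.3e-09). Slc2a3, which encodes the high-affinity glucose carrier GLUT3, stood at 13.12, 12.96 and 12.83 in the kidney tumors and at 7.19, 7.11 and 7.27 in the normal kidneys (5.78 ± 0.19, adjusted p 3.27e-09). Prtg, which encodes the embryonic cell surface protein protogenin, stood at 11.59, 11.96 and 11.97 in the kidney tumors and at 6.76, 6.89 and 6.98 in the normal kidneys (4.96 ± 0.13, adjusted p 5.03e-10). Each of the 3 genes lay at a like level in all tumors, far above every normal kidney. The imprinted genes Peg10, Igf2, Nnat and Zdbf2, which are expressed from the paternal copy and mostly in the embryo, rose by 5.47 ± 0.50, 4.85 ± 0.46, 4.80 ± 0.59 and 4.51 ± 0.22. Of the other genes of largest rise, Vcan encodes the matrix proteoglycan versican (4.63 ± 0.37), Dgkk a diacylglycerol kinase (4.55 ± 0.36) and Igf2bp3 an RNA binding protein of fetal tissue (4.54 ± 0.26). DQ267102, an array symbol with no further name here, stood at 12.12, 11.84 and 12.08 in the tumors and at 7.11, 6.56 and 7.30 in the normal kidneys (5.02 ± 0.28, adjusted p 7.58e-08).

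The genes of largest fall included carriers and enzymes of the proximal tubule, several of them uneven among the tumors. Inmt, which methylates indoles and thioethers, stood at 9.51, 7.46 and 6.06 in kidney tumors 1, 2 and 3, against 13.50, 13.50 and 13.57 in the normal kidneys (log2 change -5.85 ± 0.60, adjusted p 5.6e-06). Sucnr1, which encodes the succinate receptor, stood at 6.59, 6.84 and 6.39 in the kidney tumors and at 10.45, 10.29 and 10.27 in the normal kidneys (-3.73 ± 0.17, adjusted p 1.46e-08). Azgp1, which encodes a secreted zinc binding glycoprotein, stood at 6.01, 5.62 and 5.78 in the kidney tumors and at 11.33, 10.06 and 10.16 in the normal kidneys (-4.71 ± 0.29, adjusted p 1.19e-07). Sucnr1 and Azgp1 fell to a like level in all 3 tumors, whereas Inmt spanned more than 3 units among them. The carnosine peptidase gene Cndp1 (-4.01 ± 0.25), the steroid reductase gene Akr1c21 (-3.95 ± 0.48) and Fam151a, of unsettled function (-3.69 ± 0.32), were among the 15 of largest fall too.

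**Figure D1:**
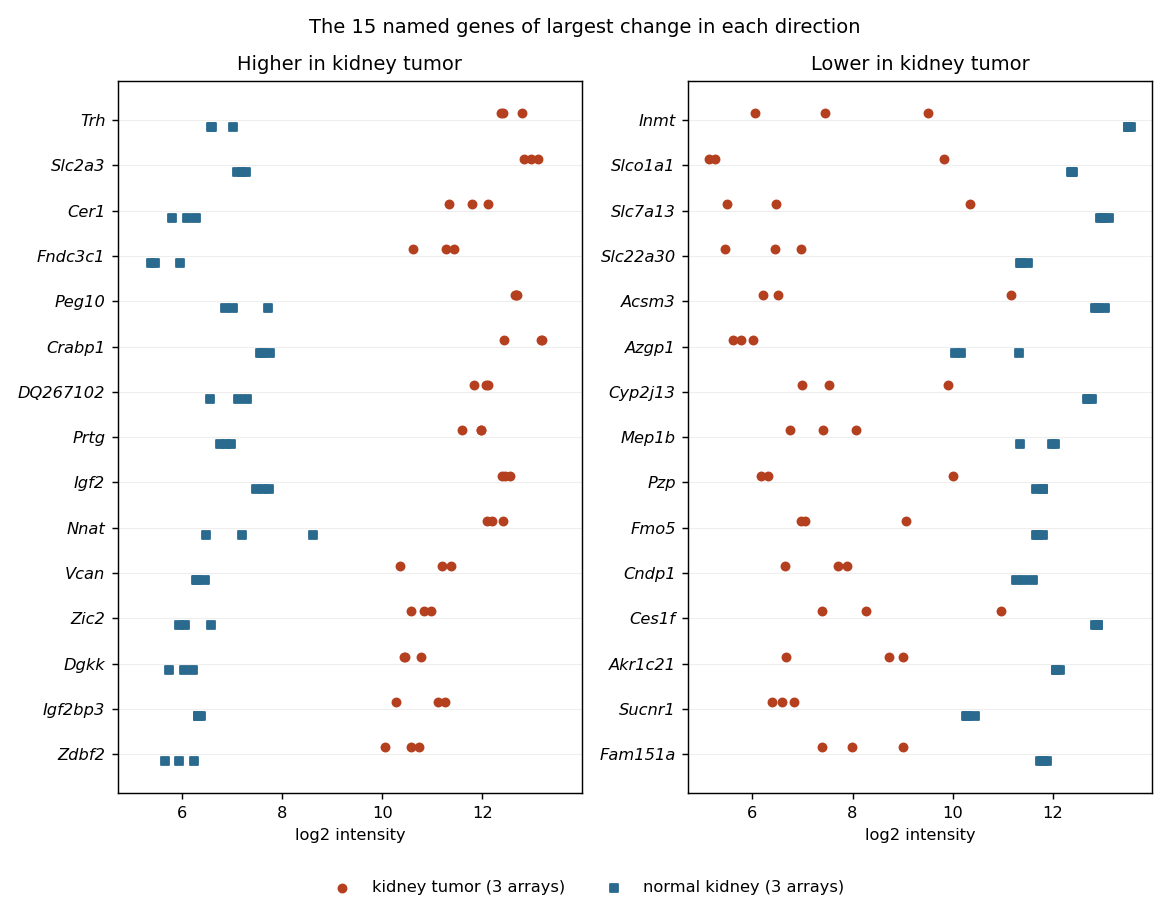
log2 intensity of the 15 named genes of largest change in each direction, with 1 point per array, kidney tumors as circles above normal kidneys as squares in each row. The genes that rose lie close together in the tumors, while several genes that fell have 1 tumor point, kidney tumor 1, to the right of the other tumor points.

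Genes of proximal tubule transport were lower. All 20 measured genes of organic anion and cation carriers fell, with a list median of -2.19. Slc22a7, a carrier of organic anions, stood at 8.96, 8.56 and 8.23 in the kidney tumors and at 11.08, 11.10 and 11.71 in the normal kidneys (-2.71 ± 0.23, adjusted p 1.22e-06). Slc22a30, another member of that family, fell by 5.11 ± 0.29 and stood below 7 in all tumors. Among 14 amino acid and peptide carriers 11 fell and 0 rose (median -1.47), among them Slc6a19, which takes up neutral amino acids at the brush border (-2.59 ± 0.29), and Slc1a1, a glutamate carrier (-2.16 ± 0.34). Of 18 carriers of glucose, phosphate, sulfate and bicarbonate 15 fell and 0 rose (median -1.62). Slc34a3, a phosphate carrier, stood at 8.24, 9.44 and 8.01 in the kidney tumors and at 11.01, 11.59 and 11.18 in the normal kidneys (-2.70 ± 0.29, adjusted p 9e-06). The sulfate carrier gene Slc13a1 was not called: it stood at 12.91, 12.49 and 11.87 in the tumors and at 12.88, 12.92 and 12.77 in the normal kidneys (-0.44 ± 0.42, adjusted p 0.399). Of 19 genes of endocytosis and the brush border 14 fell and 0 rose (median -1.55), led by the protease gene Mep1b (-4.38 ± 0.26), the trehalase gene Treh (-2.46 ± 0.45) and the dipeptidase gene Dpep1 (-2.33 ± 0.51).

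The later nephron segments were lower as well. Of 25 genes of salt and water transport in the loop, distal tubule and collecting duct 21 fell and 0 rose (median -1.62), but 12 with tumor 1 alone. Bsnd, the chloride channel subunit barttin, stood at 8.35, 8.59 and 7.84 in the kidney tumors and at 10.76, 10.48 and 10.78 in the normal kidneys (-2.41 ± 0.16, adjusted p 2.65e-07). Aqp3, a water channel of the collecting duct, stood at 9.38, 8.36 and 7.97 in the kidney tumors and at 11.07, 11.07 and 10.96 in the normal kidneys (-2.47 ± 0.27, adjusted p 9.94e-06). The tumor arrays lay at least 1 unit below all normal kidneys for both genes. Umod, which encodes uromodulin, the main protein of normal urine, was not called (-0.71 ± 0.55, adjusted p 0.29), with 13.05, 12.54 and 11.88 in the tumors and 13.24, 13.13 and 13.24 in the normal kidneys, near the upper end of the measured values. Of 15 genes of intercalated cells, which secrete acid or base, 14 fell and 0 rose (median -1.84), among them the proton pump subunit gene Atp6v1b1 (-2.09 ± 0.16), the ammonia channel gene Rhbg (-2.08 ± 0.23) and the anion exchanger gene Slc4a1 (-2.23 ± 0.60). The carbonic anhydrase gene Car2, the remaining member, stood at 11.90, 12.09 and 11.50 in the tumors and at 12.32, 12.35 and 12.33 in the normal kidneys (-0.50 ± 0.28, adjusted p 0.153).

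Hormone genes and tubule transcription factors were mostly lower. Of 12 kidney hormones and their receptors 9 fell and 2 rose (median -1.45). Kl, which encodes Klotho, the coreceptor of the phosphate hormone FGF23, stood at 10.18, 10.65 and 9.32 in the kidney tumors and at 12.45, 12.49 and 12.52 in the normal kidneys (-2.44 ± 0.35, adjusted p 7.11e-05). Ace, the angiotensin converting enzyme gene, fell by 2.37 ± 0.53, and Egf by 1.88 ± 0.27. The 2 that rose were Epo, the erythropoietin gene (0.76 ± 0.15), and Calcr, the calcitonin receptor gene (1.03 ± 0.22), both singled out after their values were seen. Of 20 transcription factors of the differentiated tubule 14 fell and 1 rose (median -1.23), while 9 fell with tumor 1 alone. Hnf4g, a nuclear receptor of tubule and gut epithelium, stood at 7.34, 7.22 and 6.46 in the kidney tumors and at 8.71, 8.95 and 8.82 in the normal kidneys (-1.82 ± 0.18, adjusted p 4.31e-06). The bile acid receptor gene Nr1h4 fell by 1.89 ± 0.38, as did Ppargc1a, which drives mitochondrial genes, by 1.89 ± 0.43. The factor that rose was Lhx1, which acts early in nephron formation (1.05 ± 0.32, adjusted p 0.0142) and was also singled out after its values were seen.

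Podocyte and embryonic kidney genes were mixed. Of 11 podocyte genes 6 fell and 2 rose (median -0.73), and with tumor 1 alone 3 fell and 0 rose. Nphs1, which encodes the slit diaphragm protein nephrin, stood at 7.42, 7.18 and 7.15 in the kidney tumors and at 8.22, 8.71 and 8.56 in the normal kidneys (-1.25 ± 0.15, adjusted p 2.08e-05). Clic5, a chloride channel relative of podocyte foot processes, fell by 1.71 ± 0.32. Of 19 genes of nephron progenitors and ureteric bud 7 rose and 2 fell (median 0.02), so the list as a whole was near the median of all genes. Eya1, a cofactor of nephron progenitors, stood at 8.65, 9.11 and 9.40 in the kidney tumors and at 6.27, 6.16 and 6.40 in the normal kidneys (2.77 ± 0.30, adjusted p 9.43e-06). Sall1, a zinc finger factor of kidney development, rose by 1.19 ± 0.13, whereas Crym, a thyroid hormone binding protein gene, fell by 1.33 ± 0.14.

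Genes of oxidative metabolism were lower. All 32 genes of the respiratory chain and ATP synthase fell, also with tumor 1 alone. Ndufs1, a subunit of complex I, stood at 10.35, 10.46 and 10.22 in the kidney tumors and at 11.62, 11.39 and 11.55 in the normal kidneys (-1.18 ± 0.12, adjusted p 7.05e-06). The list median was -0.81, with -0.69, -0.81 and -0.91 in kidney tumors 1, 2 and 3. Of 19 genes of the citric acid cycle and pyruvate dehydrogenase 18 fell and 0 rose (median -0.93), among them Sucla2, a succinate-CoA ligase subunit (-1.25 ± 0.13). All 17 genes of fatty acid oxidation fell (median -1.16), with Acadm, the medium-chain acyl-CoA dehydrogenase, at 12.15, 11.51 and 11.26 in the kidney tumors and at 13.27, 13.16 and 13.27 in the normal kidneys (-1.59 ± 0.18, adjusted p 1.35e-05). Of 20 peroxisome genes 19 fell and 0 rose (median -1.56), led by the epoxide hydrolase gene Ephx2 (-2.75 ± 0.39), the racemase gene Amacr (-2.60 ± 0.22) and the branched-chain oxidase gene Acox2 (-2.54 ± 0.42).

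Of 34 genes of amino acid breakdown and creatine synthesis 29 fell and 0 rose (median -1.58). Acmsd, which diverts tryptophan breakdown away from NAD, stood at 6.93, 9.77 and 8.29 in kidney tumors 1, 2 and 3, against 11.45, 11.89 and 11.64 in the normal kidneys (-3.33 ± 0.66, adjusted p 0.000976). It was lowest in kidney tumor 1, the tumor in which most genes of the tubule had changed least. Sardh, a sarcosine dehydrogenase gene, fell by 2.70 ± 0.28, and Haao, of the kynurenine pathway, by 2.69 ± 0.25. Gldc, the glycine decarboxylase gene, was not called (0.05 ± 0.19, adjusted p 0.834). Of 9 genes of gluconeogenesis and fructose use 7 fell and 0 rose (median -1.42), with the fructose kinase gene Khk at -2.21 ± 0.25 and the pyruvate carboxylase gene Pcx at -2.00 ± 0.35.

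Enzymes that oxidise and conjugate drugs, steroids and acids mostly fell, unevenly among the tumors. Of 24 cytochrome P450 and other oxidising enzymes 17 fell and 1 rose (median -1.79), but 10 fell with tumor 1 alone, and 19 of the 24 spanned at least 2-fold among the tumors. Fmo5, a flavin monooxygenase gene, stood at 9.08, 7.05 and 6.97 in kidney tumors 1, 2 and 3, against 11.81, 11.66 and 11.70 in the normal kidneys (-4.02 ± 0.45, adjusted p 1.15e-05). Ces1f, a carboxylesterase gene, stood at 10.97, 8.26 and 7.39 in the same tumors and at 12.90, 12.90 and 12.84 in the normal kidneys (-4.01 ± 0.77, adjusted p 0.000727). The enzyme that rose was Cyp4a14, a fatty acid hydroxylase gene of the female-biased list, with 12.34, 10.69 and 11.58 in the tumors and 8.74, 9.65 and 9.97 in the normal kidneys (2.08 ± 0.35, adjusted p 0.000287). It was highest in the tumor without Xist signal. Of 24 conjugating enzymes 22 fell and 1 rose (median -2.02), among them the glucuronosyltransferase gene Ugt2b37 (-3.41 ± 0.50). Of 20 antioxidant and glutathione enzymes 14 fell and 2 rose (median -0.70), led by the glutathione synthetase gene Gss (-2.07 ± 0.22), the quinone reductase gene Nqo1 (-1.95 ± 0.45) and the extracellular superoxide dismutase gene Sod3 (-1.54 ± 0.29).

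Genes of sugar use did not move together. Of 23 genes of glycolysis and the hypoxia response 8 rose and 4 fell (median 0.17). The lactate carrier gene Slc16a3 stood at 11.33, 11.03 and 11.52 in the kidney tumors and at 7.67, 7.74 and 7.79 in the normal kidneys (3.56 ± 0.14, adjusted p 4.38e-09). Hexokinase 2, encoded by Hk2, stood at 10.34, 10.07 and 10.33 in the kidney tumors and at 7.47, 7.43 and 6.96 in the normal kidneys (2.96 ± 0.22, adjusted p 4.66e-07). Both stood above normal kidney in each tumor, while Car9, a carbonic anhydrase that marks the hypoxia response, fell by 2.12 ± 0.23 and was singled out after its values were seen. Of 13 enzymes of serine, glycine and one-carbon metabolism 4 rose and 5 fell (median -0.06). The mitochondrial folate enzyme genes Mthfd2 and Mthfd1l rose by 2.28 ± 0.18 and 2.15 ± 0.11, whereas Aldh1l1, a cytosolic folate enzyme of the proximal tubule, fell by 1.58 ± 0.34.

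Genes that supply growing cells rose in several steps. Of 13 nutrient carriers of growing cells 6 rose and 3 fell (median 0.67). Slc38a1, a glutamine carrier, stood at 10.80, 11.30 and 11.45 in the kidney tumors and at 7.06, 7.10 and 7.33 in the normal kidneys (4.02 ± 0.19, adjusted p 2.28e-08). The arginine carrier gene Slc7a3 rose by 3.62 ± 0.47 and the leucine carrier gene Slc7a5 by 2.89 ± 0.25. Of 20 genes of nucleotide synthesis 13 rose and 1 fell (median 0.66), while 7 rose with tumor 1 alone. Cad, which starts pyrimidine synthesis, stood at 10.10, 10.62 and 10.81 in the kidney tumors and at 8.12, 8.15 and 7.94 in the normal kidneys (2.44 ± 0.14, adjusted p 9.77e-08). Of 18 genes of cholesterol synthesis 4 rose and 6 fell (median -0.16), with the farnesyl diphosphate synthase gene Fdps up by 1.27 ± 0.16 and the sterol isomerase gene Ebp down by a change of -0.91 ± 0.11. The 6 that fell numbered 3 without kidney tumor 1, and the 4 that rose numbered 2 without kidney tumor 2. Of 12 genes of fatty acid synthesis 4 rose and 3 fell (median 0.30), 7 rose with quantile normalization, and 2 rose without normal kidney 3.

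Genes that make ribosomes and process RNA rose. Of 34 genes of ribosome biogenesis 32 rose and 0 fell (median 1.08), with medians of 0.79, 1.17 and 1.30 in kidney tumors 1, 2 and 3, each minus the normal kidney mean. At least 2-fold above the normal kidney mean were 14, 23 and 26 of the 34 in these tumors. Nop58, a core protein of the particles that methylate ribosomal RNA, stood at 10.33, 10.67 and 10.81 in the kidney tumors and at 8.75, 8.44 and 8.23 in the normal kidneys (2.13 ± 0.19, adjusted p 2.17e-06). Npm1, the nucleolar chaperone nucleophosmin, stood at 11.95, 12.02 and 12.16 in the kidney tumors and at 10.09, 10.34 and 10.02 in the normal kidneys (1.90 ± 0.09, adjusted p 1.66e-08). All 3 tumors stood more than 1.5 units above every normal kidney for both genes. Of 20 splicing genes 19 rose and 0 fell (median 1.04), for example Sf3b3, of the particle that recognises branch points (1.64 ± 0.11). Of 18 aminoacyl-tRNA synthetases 15 rose and 0 fell (median 0.66), with Vars, which charges tRNA with valine, at 1.40 ± 0.11. Of 19 chaperones 9 rose and 2 fell (median 0.27), and 14 rose with quantile normalization. The chaperonin subunit genes Cct7, Cct3 and Cct4 rose by 1.01 ± 0.12, 0.93 ± 0.11 and 0.83 ± 0.12, while the heat shock cognate gene Hspa8 was not called (0.00 ± 0.07, adjusted p 0.975).

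Many ribosome biogenesis genes are known targets of Myc, which binds the E-box with its partner Max, and the same E-box lies in promoters of germ line genes that are normally silenced in body cells. The E-box letters CACGTG, which read alike on both strands, were looked up in RefSeq promoters of build GRCm38.p6 that run from 250 bases before to 50 bases after a gene start. They occurred in 7.24% of 27025 promoters, in 8 of 29 ribosome biogenesis promoters (27.6%) and in 10 of 15 germ line promoters (66.7%). Other lists held them as often as ribosome biogenesis, with 5 of 14 promoters of the insulin-like growth factor axis (35.7%) and 3 of 11 of the aminoacyl-tRNA synthetases (27.3%). The 3 ribosome biogenesis genes with a match and the largest rise and the germ line gene with a match and the largest change are shown, 5′ to 3′ on the gene's strand, with the E-box in capitals. Mybbp1a, a nucleolar protein that binds Myb, rose by 1.51 ± 0.12 and has its promoter at chr11:72441077-72441376 on the plus strand. Wdr43, of the early ribosomal particle, rose by 1.36 ± 0.12 and has its promoter at chr17:71615965-71616264 on the plus strand. Grwd1, a ribosome assembly factor, rose by 1.13 ± 0.15 and has its promoter at chr7:45830740-45831039 on the minus strand. Sycp3, of the meiotic chromosome axis, fell by 1.24 ± 0.12 and has its promoter at chr10:88459337-88459636 on the plus strand.
Mybbp1a: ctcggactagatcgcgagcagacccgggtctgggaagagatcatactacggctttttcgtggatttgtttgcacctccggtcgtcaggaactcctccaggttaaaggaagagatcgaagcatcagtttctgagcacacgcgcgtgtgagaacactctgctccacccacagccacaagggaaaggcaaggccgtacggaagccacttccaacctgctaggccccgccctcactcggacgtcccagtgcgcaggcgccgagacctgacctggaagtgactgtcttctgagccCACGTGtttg
Wdr43: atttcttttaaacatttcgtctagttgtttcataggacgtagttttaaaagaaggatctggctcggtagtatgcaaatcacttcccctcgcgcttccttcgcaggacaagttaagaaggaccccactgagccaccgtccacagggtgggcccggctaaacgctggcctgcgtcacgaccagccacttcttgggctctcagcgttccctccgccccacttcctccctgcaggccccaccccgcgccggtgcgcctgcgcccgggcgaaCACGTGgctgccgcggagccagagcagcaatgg
Grwd1: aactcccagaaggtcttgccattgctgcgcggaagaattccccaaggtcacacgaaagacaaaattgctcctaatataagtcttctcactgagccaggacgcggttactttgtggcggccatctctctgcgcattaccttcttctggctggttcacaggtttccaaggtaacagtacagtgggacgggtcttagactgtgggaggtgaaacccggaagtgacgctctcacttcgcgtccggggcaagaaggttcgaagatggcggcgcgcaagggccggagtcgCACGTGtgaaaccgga
Sycp3: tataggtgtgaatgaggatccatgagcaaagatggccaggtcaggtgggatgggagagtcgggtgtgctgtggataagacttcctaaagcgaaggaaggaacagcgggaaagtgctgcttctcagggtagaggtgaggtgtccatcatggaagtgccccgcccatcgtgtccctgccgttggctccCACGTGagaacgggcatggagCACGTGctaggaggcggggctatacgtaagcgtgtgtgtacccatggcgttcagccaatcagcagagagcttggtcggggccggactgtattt

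The matches lay 40, 17 and 34 bases after the start in Mybbp1a, Wdr43 and Grwd1, and Sycp3 held 2 of them, the first 64 bases before the start. A match is a description of letters and not a measured binding site. Of 16 germ line genes 0 rose and 2 fell (median -0.14), so genes of this list stood near the median of all genes. Sycp3 stood at 5.51, 5.36 and 5.43 in the kidney tumors and at 6.83, 6.72 and 6.48 in the normal kidneys (adjusted p 3.97e-06), and all of these values are at the dim end of the scale.

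Signalling genes of the early embryo rose in the tumors. Of 25 genes of Nodal, Bmp and Tgf-beta signalling 18 rose and 1 fell (median 1.22). Cer1, a secreted inhibitor of Nodal, stood at 11.79, 11.34 and 12.11 in the kidney tumors and at 6.11, 6.28 and 5.79 in the normal kidneys (5.69 ± 0.51, adjusted p 2.01e-06). Tdgf1, the Nodal coreceptor Cripto, stood at 10.35, 9.47 and 10.10 in the kidney tumors and at 6.30, 6.22 and 6.04 in the normal kidneys (3.79 ± 0.34, adjusted p 2.01e-06). Both the inhibitor and the coreceptor of this pathway were therefore high in each tumor, and Foxh1, the nuclear partner of its Smad proteins, rose by 3.22 ± 0.23. Of 20 genes of Fgf signalling 14 rose and 3 fell (median 0.67). The ligand genes Fgf15 and Fgf5 rose by 3.87 ± 0.25 and 3.50 ± 0.35, while Fgf1, a ligand of adult kidney, stood at 10.22, 9.03 and 8.59 in the kidney tumors and at 12.16, 11.68 and 11.90 in the normal kidneys (-2.64 ± 0.35, adjusted p 4.47e-05).

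Of 22 genes of Wnt signalling 12 rose and 3 fell (median 0.74), and the 3 that fell numbered 1 without any 1 tumor array or without normal kidney 1 or 3. Sfrp2, a secreted Wnt binding protein, stood at 10.75, 11.60 and 11.86 in the kidney tumors and at 7.59, 8.11 and 7.67 in the normal kidneys (3.61 ± 0.39, adjusted p 9.01e-06). The Wnt inhibitor gene Dkk1 rose by 3.97 ± 0.24 and the receptor gene Fzd2 by 2.51 ± 0.20. Of 24 genes of Notch and Hedgehog signalling 17 rose and 4 fell (median 1.03), among them the Hedgehog effector gene Gli3 (3.11 ± 0.15), the Notch target gene Hey1 (2.27 ± 0.26) and the receptor gene Notch3 (1.98 ± 0.10). The 4 that fell numbered 1 or 2 without kidney tumor 2 or 3 or without normal kidney 1 or 2. Of 14 genes of the retinoid pathway 7 rose and 3 fell (median 0.60). The retinoic acid binding protein genes Crabp1 and Crabp2 rose by 5.29 ± 0.19 and 4.07 ± 0.30, and Cyp26a1, which breaks retinoic acid down, stood at 10.54, 10.20 and 10.75 in the kidney tumors and at 6.29, 5.82 and 6.37 in the normal kidneys (4.34 ± 0.32, adjusted p 5.05e-07). Of 18 receptor tyrosine kinases and their ligands 5 rose and 4 fell (median -0.11), with the ephrin receptor gene Epha2 up by 1.84 ± 0.14 and the hepatocyte growth factor receptor gene Met at -1.53 ± 0.23.

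Genes of embryonic tissues rose to different degrees. Of 20 genes of neural progenitors and neurons 19 rose and 0 fell (median 1.95), while 12 rose with tumor 1 alone. Otx2, a homeobox factor of forebrain and epiblast, stood at 11.07, 10.96 and 11.43 in the kidney tumors and at 6.21, 5.96 and 6.25 in the normal kidneys (5.01 ± 0.29, adjusted p 9.06e-08). Sox11, a factor of immature neurons, stood at 10.39, 11.06 and 11.19 in the kidney tumors and at 6.39, 6.35 and 6.46 in the normal kidneys (4.48 ± 0.19, adjusted p 1.14e-08). The zinc finger gene Zic2 rose by 4.60 ± 0.21. In the embryonic stem cell array of the series Otx2, Sox11 and Zic2 stood at 10.10, 9.26 and 10.23, so high levels of them are not particular to neural tissue. Sox10, which marks neural crest and glia, was not called (-0.18 ± 0.11, adjusted p 0.202) and lay at the dim end, between 7.08 and 7.25, in all tumors. Of 12 mesendoderm genes 10 rose and 0 fell (median 0.74), and 6 rose when the dimmest genes were left out. The T-box factor gene Eomes rose by 3.81 ± 0.28, Mixl1 by 2.12 ± 0.23 and the endoderm factor gene Foxa2 by 1.83 ± 0.22. Of 14 genes of visceral endoderm 7 rose and 3 fell (median 0.43), with the apolipoprotein gene Apoa1 up by 2.71 ± 0.15 and the transthyretin gene Ttr, which normal kidney also expressed, at 9.53, 9.63 and 9.07 in the tumors and 12.04, 12.14 and 12.26 in the normal kidneys (-2.74 ± 0.19, adjusted p 3.44e-07). Of 11 trophoblast genes 4 rose and 0 fell (median 0.22), with 2 without normal kidney 2 and 1 with tumor 1 alone. Of 16 p53 targets and cell cycle inhibitors 5 rose and 3 fell (median 0.18). With tumor 1 alone 1 of them rose, and with quantile normalization or centred arrays 3 rose. The receptor gene Eda2r rose by 1.56 ± 0.11 and Fas fell by 1.03 ± 0.11.

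**Figure D2:**
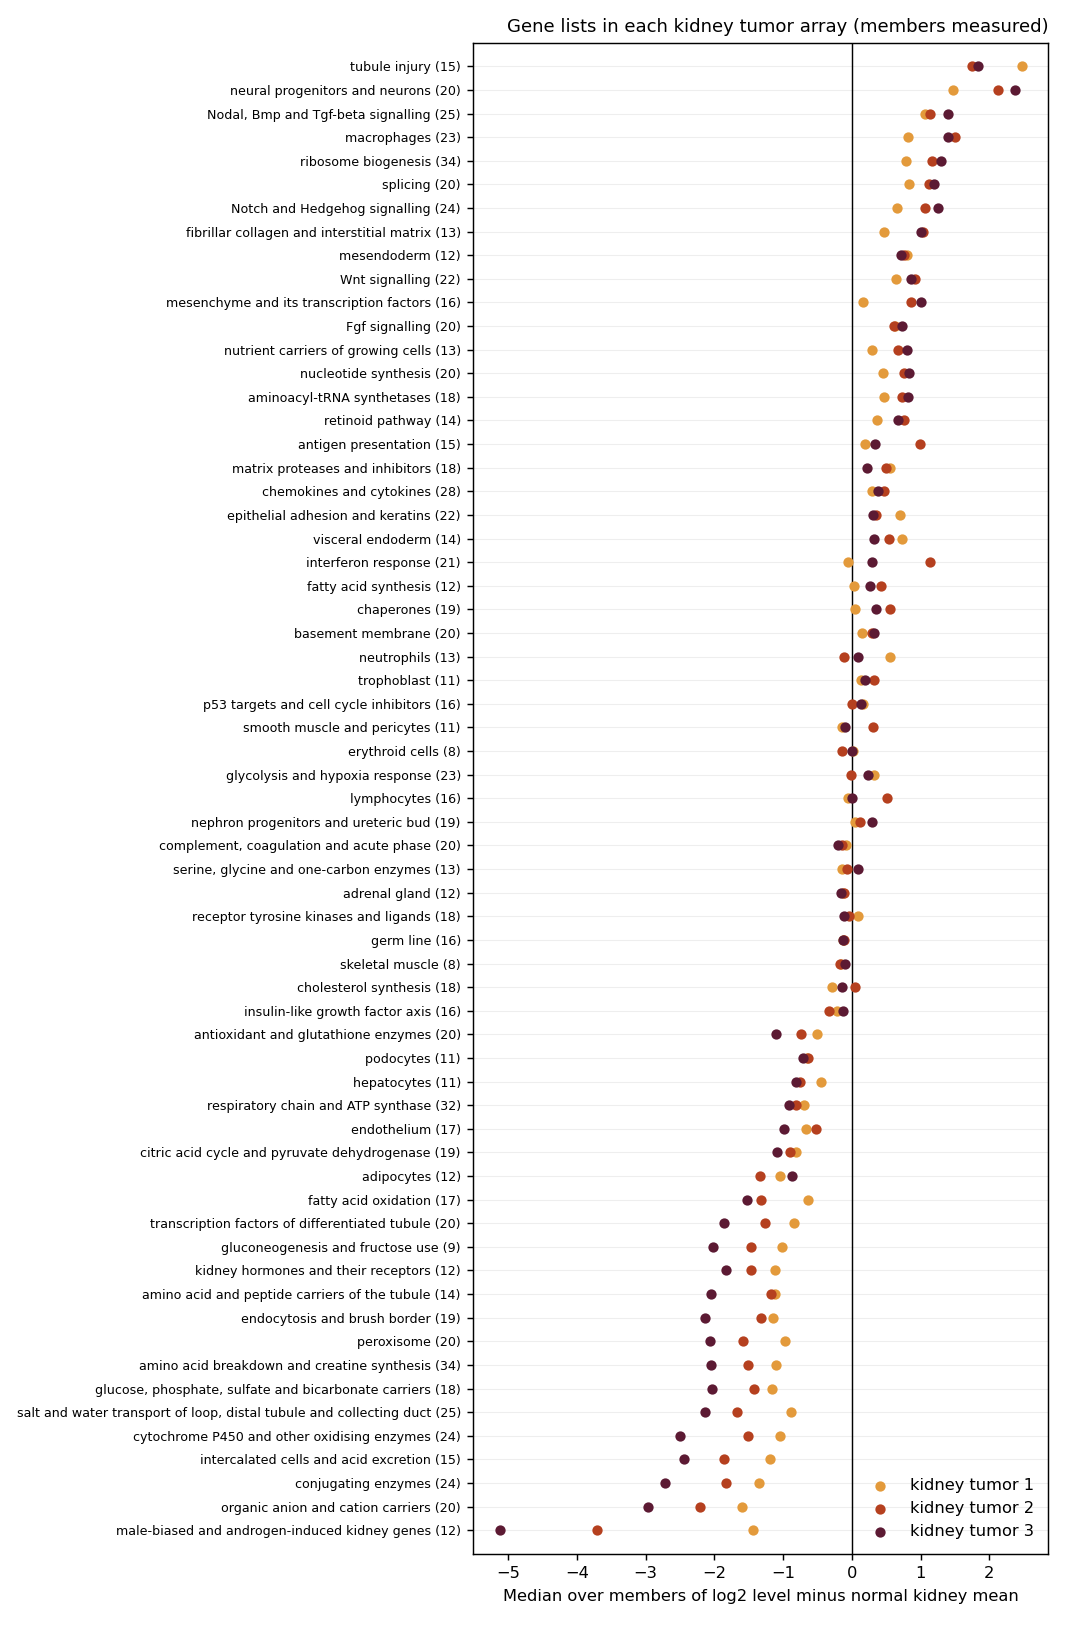
Median over the measured members of each gene list of the log2 level in a kidney tumor minus the normal kidney mean, with 1 point per kidney tumor array and the number of members in parentheses. Tubule, metabolic and male-biased lists lie to the left with kidney tumor 1 nearest to 0, and the tubule injury list lies farthest to the right in kidney tumor 1.

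Epithelial and matrix genes changed member by member. Of 22 genes of epithelial adhesion and keratins 9 rose and 5 fell (median 0.46). Cldn6, a tight junction claudin of embryonic epithelium, stood at 12.08, 12.08 and 12.39 in the kidney tumors and at 8.03, 7.85 and 7.72 in the normal kidneys (4.32 ± 0.32, adjusted p 5.62e-07). Cldn10, a claudin of the adult tubule, stood at 9.84, 9.09 and 8.41 in the kidney tumors and at 12.10, 11.84 and 12.05 in the normal kidneys (-2.88 ± 0.38, adjusted p 3.97e-05). An embryonic and an adult claudin thus lay on opposite sides of normal kidney in each tumor, and the keratin gene Krt18 rose by 2.65 ± 0.25. Of 16 mesenchymal genes 6 rose and 0 fell (median 0.73), while 3 rose with tumor 1 alone. The cadherin gene Cdh2 rose by 2.39 ± 0.16 and the filament gene Vim, encoding vimentin, by 1.92 ± 0.26. Of 13 genes of collagen and interstitial matrix 7 rose and 0 fell (median 0.89), while 3 rose with tumor 1 alone. Fn1, which encodes fibronectin, stood at 12.45, 12.66 and 12.76 in the kidney tumors and at 9.62, 10.07 and 10.10 in the normal kidneys (2.70 ± 0.19, adjusted p 4.22e-07). In the embryonic stem cell array Vim, Fn1 and Cdh2 stood at 13.33, 12.80 and 9.73. High levels of Vim and Fn1 are thus not particular to mesenchyme.

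Of 16 genes of the insulin-like growth factor axis 4 rose and 4 fell (median -0.37), and of 20 genes of complement, coagulation and acute phase 3 rose and 3 fell (median -0.04). Of 20 genes of the basement membrane 7 rose and 4 fell (median 0.25). The 7 that rose numbered 3 with tumor 1 alone and 4 each without kidney tumor 1, without normal kidney 1 or with centred arrays. Col4a3 and Col4a4, chains of the mature glomerular and tubular basement membrane, changed by -1.21 ± 0.15 and -1.27 ± 0.12, and the laminin chain gene Lama3 by -1.79 ± 0.23. Of 18 matrix proteases and inhibitors 8 rose and 0 fell (median 0.52), and 4 members fell without kidney tumor 1. The membrane protease gene Mmp14 stood at 10.33, 10.70 and 10.79 in the kidney tumors and at 7.94, 8.11 and 8.23 in the normal kidneys (2.51 ± 0.16, adjusted p 1.68e-07).

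Genes of tubule injury were high in the tumors. Of 15 measured members 11 rose and 0 fell, with the largest median of the 65 lists described, 2.06. Havcr1, which encodes the kidney injury molecule KIM-1, stood at 12.17, 11.95 and 9.70 in kidney tumors 1, 2 and 3, against 7.39, 7.72 and 7.56 in the normal kidneys (3.72 ± 0.46, adjusted p 2.4e-05). Krt20, a keratin that injured tubules switch on, stood at 11.21, 8.61 and 8.22 in the same tumors and at 6.40, 6.02 and 6.15 in the normal kidneys (3.15 ± 0.54, adjusted p 0.000333). Both were highest in kidney tumor 1, and 11 of the 15 members spanned at least 2-fold among the tumors. The protease inhibitor gene Timp1 ran the other way, with 9.76, 10.24 and 11.01 in the kidney tumors and 7.16, 7.00 and 6.58 in the normal kidneys (3.42 ± 0.43, adjusted p 2.81e-05). In the embryonic stem cell array Timp1 stood at 11.92, so a high level of it is not particular to injured tubules. Havcr1 and Krt20 stood at 6.02 and 7.10 there.

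Macrophage genes rose. Of 23 macrophage genes 19 rose and 1 fell (median 1.21), while 10 rose with tumor 1 alone. The lysozyme gene Lyz2 stood at 10.82, 11.95 and 11.86 in the kidney tumors and at 9.79, 9.39 and 9.15 in the normal kidneys (2.10 ± 0.29, adjusted p 5.29e-05). Cd68, a lysosomal protein of macrophages, rose by 2.03 ± 0.22 (adjusted p 8.5e-06). In the embryonic stem cell array of the series Cd68 stood at 9.40 and Lyz2 at 7.42, so a high level of Cd68 is not particular to macrophages. The log2 of the summed intensity of all 23 macrophage genes was 14.02, 14.34 and 14.18 in the tumors and 12.82, 12.67 and 12.61 in the normal kidneys, with no overlap. Cd14, a member that stood at 12.25 in kidney tumor 1, weighs on that tumor's sum. The median level of the 23 genes was 8.16, 9.44 and 8.86 in the tumors and 7.80, 7.88 and 7.72 in the normal kidneys. By that measure kidney tumor 1 lay nearer to normal kidney. Of 13 neutrophil genes 3 rose and 0 fell (median 0.24), and Ly6g, their defining surface marker, was not called (0.06 ± 0.16, adjusted p 0.775) at between 5.89 and 6.41 in the tumors. Of 16 lymphocyte genes 2 rose and 1 fell (median 0.16), with Cd3d, of the T cell receptor complex, not called (0.00 ± 0.09, adjusted p 0.97). Of 28 chemokines and cytokines 9 rose and 2 fell (median 0.51). The 9 that rose numbered 5 with tumor 1 alone or without normal kidney 2 or 3, and 14 in the fit on the 6 kidney arrays.

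Few genes of antigen presentation and the interferon response were called, and these counts changed when single arrays were left out. Of 15 genes of antigen presentation 4 rose and 0 fell (median 0.52), 2 without kidney tumor 2, without any 1 normal kidney or with centred arrays, and 1 with tumor 1 alone. Of 21 genes of the interferon response 4 rose and 1 fell (median 0.36), and 0 rose without kidney tumor 2. Without normal kidneys 1, 2 and 3 in turn, 1, 1 and 2 of them rose, and 2 did with quantile normalization. The medians of the interferon list were -0.05, 1.14 and 0.29 in kidney tumors 1, 2 and 3, each minus the normal kidney mean. Gbp3, an interferon-induced GTPase gene, stood at 8.11, 9.89 and 8.50 in the kidney tumors and at 7.32, 7.50 and 7.59 in the normal kidneys (1.36 ± 0.46, adjusted p 0.025), and was not called without kidney tumor 2 or without normal kidney 1 or 2. Ccl5, a T cell attracting chemokine, stood at 9.26, 11.20 and 9.61 in the kidney tumors and at 8.03, 8.08 and 8.18 in the normal kidneys (1.93 ± 0.42, adjusted p 0.00174).

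Vessel genes fell. Of 17 genes of endothelium 11 fell and 0 rose (median -0.84), while 5 fell with tumor 1 alone. Plvap, which forms the diaphragms of peritubular capillaries, stood at 9.69, 9.60 and 9.05 in the kidney tumors and at 10.69, 10.61 and 10.66 in the normal kidneys (-1.21 ± 0.13, adjusted p 8.96e-06). The log2 of the summed intensity of the 17 genes was 13.45, 13.43 and 13.12 in the tumors and 14.08, 14.04 and 14.03 in the normal kidneys. Of 11 genes of smooth muscle and pericytes 2 rose and 4 fell, and those that rose, Acta2 and Tagln, were nearest to normal kidney in kidney tumor 1. Acta2, smooth muscle actin, stood at 10.97, 12.13 and 12.14 in the kidney tumors and at 10.35, 10.34 and 10.32 in the normal kidneys (1.41 ± 0.53, adjusted p 0.0419). That call was lost without kidney tumor 2, without kidney tumor 3 and without any 1 normal kidney, and Tagln lost its call in the same settings except without normal kidney 1. Of 12 fat cell genes 1 fell and 0 rose (median -1.13). The log2 of their summed intensity was 11.65, 11.67 and 12.03 in the tumors and 13.22, 14.78 and 13.58 in the normal kidneys, with normal kidney 2 highest. Their median level was 7.31, 6.91 and 7.51 in the tumors and 7.25, 9.97 and 7.27 in the normal kidneys, so by that measure only normal kidney 2 stood above the tumors. Of 11 hepatocyte genes 6 fell and 1 rose (median -0.77), of 8 erythroid genes 1 fell, of 12 adrenal genes 1 rose, and of 8 skeletal muscle genes 0 were called. The part of these cell types in the other changes was not tested.

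The tumors had not moved equally far from normal kidney. At least 2-fold from the normal kidney mean were 2375 genes in kidney tumor 1, 3513 in kidney tumor 2 and 4262 in kidney tumor 3. Each normal kidney array set against the other normal kidneys had 63, 68 and 24 such genes. The median absolute log2 difference over all genes was 0.276, 0.351 and 0.372 in kidney tumors 1, 2 and 3, against 0.095, 0.111 and 0.097 in the normal kidneys. With centred arrays it was 0.332, 0.435 and 0.411 in these tumors, so that on this measure the order of kidney tumors 2 and 3 turned, while the counts of 2-fold genes kept theirs at 2498, 3636 and 4355. Genes at least 8-fold lower numbered 27, 38 and 130 in the 3 tumors, and genes at least 8-fold higher numbered 109, 189 and 229. Kidney tumor 3 thus had the most genes in each class. Among the 16 lists with a median change of -1 or lower, kidney tumor 3 was farthest from normal kidney in 15 and kidney tumor 1 nearest in 15. Among the 8 lists with a median of 1 or higher, kidney tumor 3 was farthest in 6 and kidney tumor 1 nearest in 7, and tubule injury was the list that kidney tumor 1 led, with 2.48 against 1.74 and 1.83 in kidney tumors 2 and 3.

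**Figure D3:**
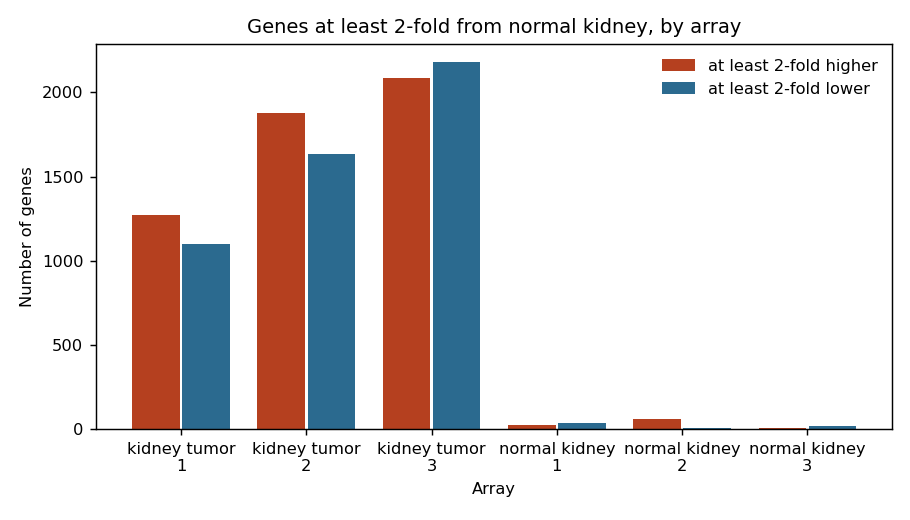
Number of genes at least 2-fold higher or lower than the normal kidney mean in each kidney tumor array, and than the mean of the other normal kidneys in each normal kidney array. The kidney tumor bars run from 1100 to 2179 genes, and the normal kidney bars stay at 59 or fewer.

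Among the tumors, 1078 genes (5.41%) spanned at least 2-fold, against 141 genes (0.707%) among the normal kidneys. Each of these 1078 genes was assigned to 1 tumor, the highest or the lowest, whichever lay farther from the middle tumor. Kidney tumor 1 was assigned 492 genes as the highest and 164 as the lowest. Kidney tumor 3 was assigned 260 as the lowest and 42 as the highest, and kidney tumor 2 was assigned 110 as the highest and 10 as the lowest. A tumor can also be highest or lowest in genes assigned to another. Such a span was found in 15 of 20 organic anion and cation carriers, 16 of 24 conjugating enzymes and 10 of 12 male-biased and androgen-induced genes. Lists with smaller changes could hardly reach it, so that the spans are not compared between lists.

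Mouse kidney is strongly shaped by androgen, and 10 of 12 genes of the male-biased and androgen-induced list were higher in kidney tumor 1 than in the other tumors. The matching share over all genes was not counted. Of 12 male-biased and androgen-induced kidney genes 10 fell and 0 rose, with medians of -1.44, -3.70 and -5.12 in kidney tumors 1, 2 and 3, each minus the normal kidney mean. This order was not particular to these genes. Kidney tumor 1 was nearest to normal kidney in 15 of the 16 lists with a median change of -1 or lower. Organic anion and cation carriers, which share members such as Slco1a1, had medians of -1.60, -2.21 and -2.97 in the same tumors. Slco1a1, an organic anion carrier, stood at 9.82, 5.25 and 5.14 in the kidney tumors and at 12.41, 12.37 and 12.38 in the normal kidneys (-5.65 ± 0.91, adjusted p 0.000201). Cyp4a12a, which makes the lipid mediator 20-HETE, stood at 11.71, 10.43 and 7.90 in the kidney tumors and at 13.34, 13.23 and 13.23 in the normal kidneys (-3.25 ± 0.70, adjusted p 0.00176). Cyp7b1, an oxysterol hydroxylase, stood at 11.03, 7.56 and 7.25 in the kidney tumors and at 12.26, 11.73 and 12.39 in the normal kidneys (-3.52 ± 0.75, adjusted p 0.00155). In these 3 genes the tumor without Xist signal lay between the other tumors and normal kidney, and 8 of the 12 genes fell with tumor 1 alone. The androgen-induced genes Odc1, of polyamine synthesis, and Gusb, which encodes beta-glucuronidase, went the other way. Odc1 stood at 11.19, 11.57 and 11.50 in the kidney tumors and at 12.31, 12.68 and 12.55 in the normal kidneys (-1.09 ± 0.13, adjusted p 1.5e-05). Gusb stood at 8.87, 9.16 and 9.13 in the kidney tumors and at 9.61, 9.64 and 9.78 in the normal kidneys (-0.63 ± 0.10, adjusted p 0.000246). Both were lowest in kidney tumor 1. Slc7a12, an amino acid carrier gene that is higher in female kidney, stood at 6.87, 10.38 and 9.58 in the tumors and at 8.19, 6.42 and 6.82 in the normal kidneys (1.80 ± 0.68, adjusted p 0.0425), and the groups overlapped. Its call was lost without kidney tumor 2 or 3, without normal kidney 2 or 3 and in the fit on the 6 kidney arrays. With tumor 1 alone its change was -0.28, of the opposite sign. All 3 female-biased genes measured rose, and 1 did with tumor 1 alone. They did not order the tumors alike: Cyp4a14, of this list, was highest in kidney tumor 1 as given above, and Abcc3, an organic anion exporter gene, stood at 8.25, 8.69 and 8.56 in the kidney tumors and at 7.77, 6.94 and 7.38 in the normal kidneys (1.14 ± 0.26, adjusted p 0.00276).

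Y-linked genes were present but uneven. Eif2s3y, a translation factor gene, stood at 10.04, 9.18 and 7.80 in the kidney tumors and at 9.75, 10.07 and 9.78 in the normal kidneys (-0.86 ± 0.47, adjusted p 0.145). Uty, a histone demethylase relative, stood at 9.45, 8.94 and 8.18 in the kidney tumors and at 9.76, 9.90 and 9.87 in the normal kidneys (-0.99 ± 0.28, adjusted p 0.00955). Kidney tumor 3 was lowest for both. Xist and Y-linked signal were thus found together in kidney tumors 2 and 3, and the labels state that tumors may hold cells of the host strain. Where these signals came from was not tested.

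Some genes stood far apart in kidney tumor 1 or in kidney tumor 2. No search was made for genes that set kidney tumor 2 or kidney tumor 3 apart. Pdk4, which brakes pyruvate oxidation, stood at 12.23, 8.59 and 8.63 in kidney tumors 1, 2 and 3, against 8.79, 9.81 and 9.63 in the normal kidneys. Lrg1, an acute phase glycoprotein gene, stood at 11.26, 7.23 and 7.86 in the tumors and at 7.86, 8.59 and 7.77 in the normal kidneys. Cyp2b10, a drug-inducible P450 gene, stood at 9.94, 5.85 and 6.23 in the tumors and at 7.37, 7.19 and 6.83 in the normal kidneys. For each of these, kidney tumor 1 lay above the normal kidneys. Both other tumors lay below the normal kidneys, except that kidney tumor 3 lay within their range for Lrg1. Cd14, the lipopolysaccharide coreceptor, stood at 12.25, 9.97 and 9.89 in the tumors and at 7.37, 7.26 and 7.18 in the normal kidneys, so that it was raised in all tumors and most in kidney tumor 1.

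Prl8a2, a prolactin family gene of the maternal placenta, stood at 5.68, 11.86 and 7.60 in kidney tumors 1, 2 and 3, against 5.80, 5.92 and 5.97 in the normal kidneys. Erv3, an endogenous retroviral gene, stood at 6.27, 11.75 and 7.63 in the tumors and at 6.50, 6.35 and 6.71 in the normal kidneys. H2-Ea, a class II antigen presenting chain that C57BL/6 mice do not transcribe, stood at 6.23, 11.17 and 6.37 in the tumors and at 5.85, 5.90 and 6.21 in the normal kidneys. The embryonic globin gene Hbb-y stood at 6.05, 9.55 and 6.69 in the tumors and at 6.13, 6.28 and 6.30 in the normal kidneys, and the interferon-induced chemokine gene Cxcl10 at 7.29, 10.06 and 8.33 in the tumors and at 7.49, 7.91 and 7.73 in the normal kidneys. Kidney tumor 2 was highest in each, and none of these genes was called over all 3 tumors. These genes, Lrg1 and Cyp2b10 were picked for a large difference between kidney tumor 1 and the other tumors, so that difference is a description.

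**Figure D4:**
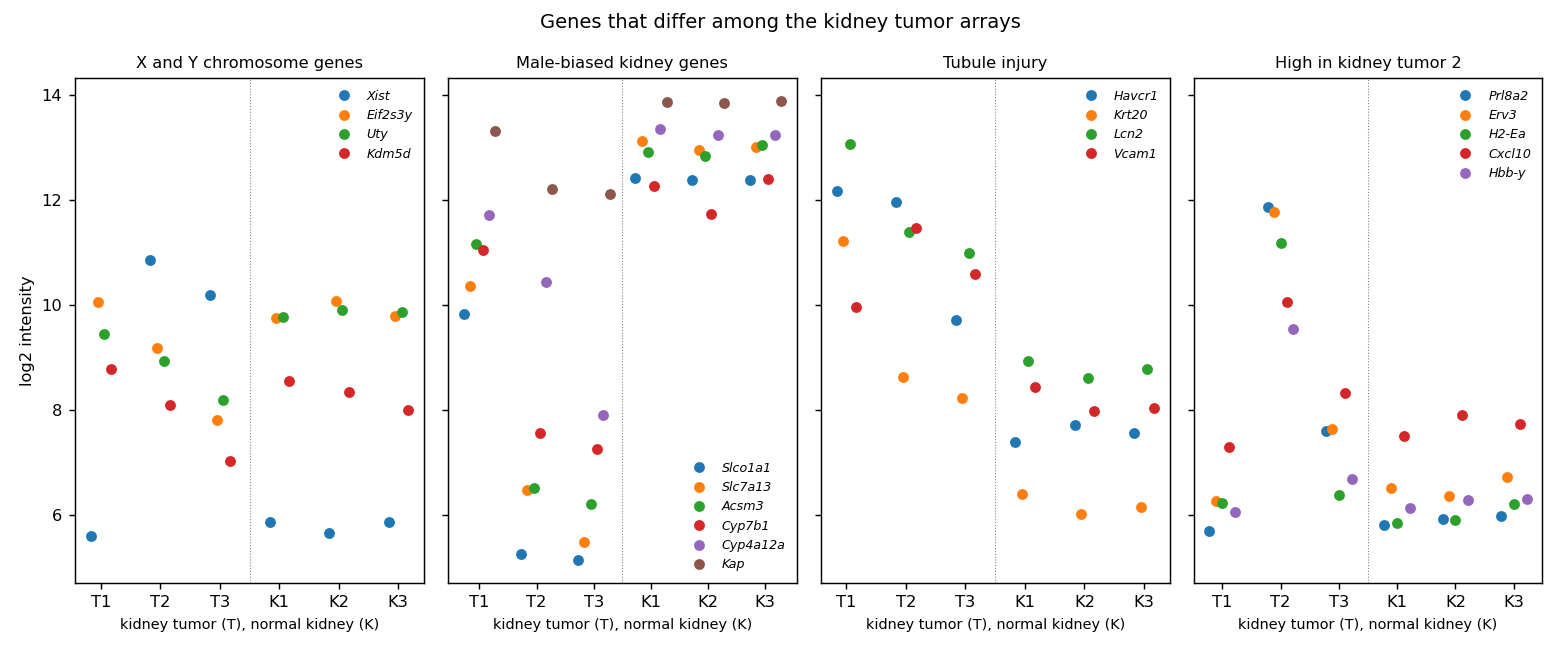
log2 intensity of genes that differ among the kidney tumor arrays, with 1 point per gene and array, kidney tumors 1 to 3 (T1 to T3) left of normal kidneys 1 to 3 (K1 to K3). Xist is at 10.84 and 10.19 in kidney tumors 2 and 3, the 6 male-biased genes plotted are highest among the tumors in kidney tumor 1, and the genes in the panel at the right are highest in kidney tumor 2.

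Liver tumors of such mice, with their own normal liver arrays, gave a set of samples that shared no array with the kidney comparison. Both comparisons came from the same fit with a common variance per gene, so their calls are not independent. Of the 1655 genes called and at least 2-fold higher in kidney tumors (8.3% of all genes), 1336 were also called higher in liver tumors (80.7%) and 25 lower (1.51%). Of the 1602 genes called and at least 2-fold lower (8.03%), 1001 were also called lower in liver tumors (62.5%) and 52 higher (3.25%). Over all genes, 21.5% were called higher and 30.7% lower in liver tumors. The difference between both organs' changes was tested for the 10 named genes of largest change in each direction, and 12 of the 20 differed at an adjusted p under 0.05. These genes were chosen for a large change in kidney, which favours a larger change there than in liver, so the count is not set against the 16.8% of all genes that differed. Igf2 changed by 4.85 ± 0.46 in kidney and 2.05 ± 0.46 in liver, a difference of 2.80 ± 0.65 (adjusted p 0.0106), and Trh by 5.79 ± 0.22 and 4.29 ± 0.22, a difference of 1.50 ± 0.31 (adjusted p 0.00586). For Fndc3c1 (5.50 ± 0.26 in kidney, 4.92 ± 0.26 in liver, adjusted p of the difference 0.316) and Nnat (4.80 ± 0.59 in kidney, 4.02 ± 0.59 in liver, adjusted p of the difference 0.589) the difference was not called. Among the genes that fell in kidney tumors was Pzp, a protease inhibitor gene. It changed by -4.26 ± 0.71 in kidney and by -0.15 ± 0.71 in liver (adjusted p of the difference 0.0139). Kidney tumors 2 and 3 stood at 6.16 and 6.31 for Pzp, against at least 11.66 in the normal kidneys. The fall was uneven, with -1.75, -5.59 and -5.44 in kidney tumors 1, 2 and 3, each minus the normal kidney mean. Slc7a13, Mep1b and Cyp2j13, which also differed between the organs, averaged 6.70, 6.48 and 7.11 in normal liver, at the dim end of the scale.

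**Figure D5:**
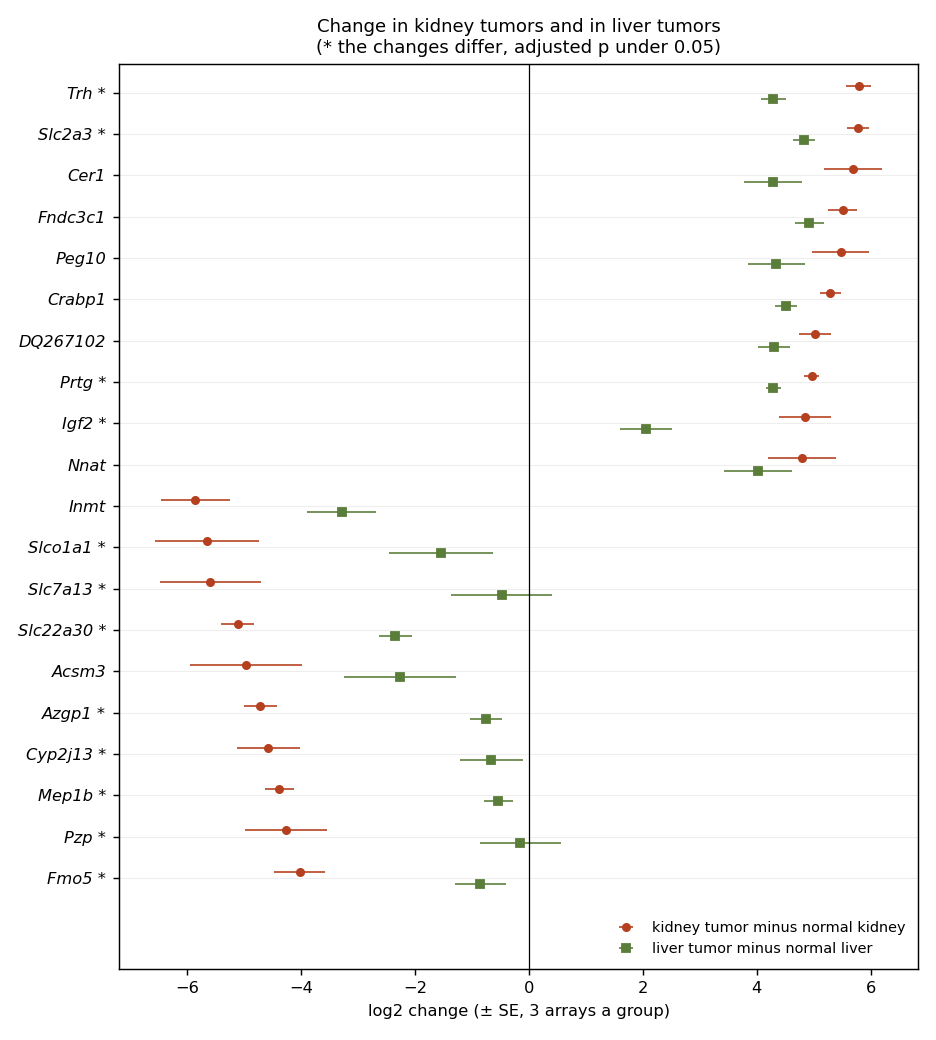
log2 change with its SE of the 10 named genes of largest rise and the 10 of largest fall, kidney tumor minus normal kidney as circles above liver tumor minus normal liver as squares. An asterisk marks the 12 genes whose change differed between organs at an adjusted p under 0.05.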

How the data were processed

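Total RNA of 16 samples was measured on 1-colour Affymetrix arrays, per the labels' protocols. The deposited values are linear probe set intensities between 20.7 and 20262; how the authors normalized them is not given in the sources used here, and the submitters' processing notes name the build mm9. They were converted to log2. Of 28856 probe sets, 21789 had 1 symbol in a platform annotation of 2016, 1621 had several and 5446 none. The probe set of highest mean stood for each of 19938 genes.

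All 16 arrays were fitted with limma 3.58.1 in R 4.3.3, 1 coefficient per group, 2-sided, Benjamini-Hochberg over all genes. In data simulated for the kidney comparison over 19938 genes, log2 changes of 0.6, 1 and 2 were recovered for 47.8%, 82.1% and 100% of changed genes, with 11 false calls. Simulated noise had the same spread in every group, whereas 5.41% of genes spanned 2-fold among the tumors and 0.707% among the normal kidneys. Far fewer genes were changed than were called in the data, so these shares do not give the error rates of the real comparison.

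The members and the 65 lists were chosen with earlier results of these data known. Genes named were drawn from the 15 largest changes in each direction among called genes without overlap (pluripotency, cell cycle and unnamed models left out), per list the 3 largest called members without overlap and the uncalled member of smallest change, the 8 genes in each direction that set kidney tumor 1 apart, and all sex-linked and sex-biased members. Not every gene so picked is described. Uncalled members left out include Cd163 of the macrophage list, Vwf of endothelium, Lgals3 of tubule injury, Gata3 of the tubule factors and Pdgfra of mesenchyme. Epo, Calcr, Lhx1, Car9, Mybbp1a, Wdr43 and Grwd1 fall outside that rule and were chosen after their values were seen. Alternatives covered the normalization, the choice of probe set, the variance model, dim genes, the replicate block and each array left out. Number of arrays limits the precision.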

Additional observations from a re-analysis of the deposited data

Results flagged for a closer look

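The change in kidney tumors minus the change in liver tumors differed from 0 for 12 of the 20 named genes of largest change in limma's test of the difference over all genes (adjusted p under 0.05). The genes were chosen for a large change in kidney, which favours such a difference, and no explanation was tested. Among genes that rose in kidney tumors, this log2 difference was 1.50 for Trh, 0.95 for Slc2a3, 0.67 for Prtg and 2.80 for Igf2. Among genes that fell in kidney tumors, it was -4.11 for Slco1a1, -5.12 for Slc7a13, -2.77 for Slc22a30, -3.96 for Azgp1, -3.91 for Cyp2j13, -3.84 for Mep1b, -4.11 for Pzp and -3.17 for Fmo5. Slc7a13, Mep1b and Cyp2j13 were dim in normal liver.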

How the results depend on the processing

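Of 145 named genes that were called, each kept its direction and call with the mean of probe sets, centred arrays, quantile normalization, trend and robust variance, a variance per group and without kidney tumor 1. With any other 1 array left out, 141 to 143 kept both, and with tumor 1 alone 129 did. Without kidney tumors 2 and 3, 5715 genes were called, 2633 higher and 3082 lower, with fewer samples by construction. Leaving out 1 array gave 8373 to 10040 called genes, 3760 to 4512 higher and 4613 to 5528 lower. The replicate numbers share only a number: deviations of same-numbered arrays correlated at 0.0615, 0.0464 and 0.0563, and the fit with the number as a block called 9797 genes. That block ended the calls of Acta2 and Slc7a12. The median absolute difference was 0.332, 0.435 and 0.411 in kidney tumors 1, 2 and 3 with centred arrays, which turned the order of tumors 2 and 3, and 0.415, 0.528 and 0.596 in kidney tumors 1, 2 and 3 without the dimmest genes. The cause of these shifts was not tested.

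Among the genes whose sign turned, Slc7a12 was called over all tumors and the others were not. With centred arrays the changes were -0.081 for Gldc, -0.13 for Hspa8, -0.0754 for Ly6g and -0.13 for Cd3d, and with the mean of probe sets -0.0686 for Hspa8. With 1 array left out in turn, the change ran from -0.033 to 0.039 for Hspa8, from -0.058 to 0.052 for Cd3d, from -0.0690 to 0.21 for Gldc, from -0.12 to 0.15 for Ly6g, from -0.80 to 1.02 for Pdk4, from -1.09 to 0.96 for Cyp2b10 and from -0.53 to 1.49 for Lrg1. With tumor 1 alone the changes were 0.052 for Slc13a1, -0.029 for Hspa8, -0.091 for Cd3d, -0.28 for Slc7a12, -0.19 for Xist, 0.18 for Eif2s3y, -0.22 for Prl8a2, -0.25 for Erv3, -0.18 for Hbb-y and -0.42 for Cxcl10. Dim genes have compressed folds.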
